A study of Saccharomyces cerevisiae with 24 samples.

Results

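Ribonucleotide reductase and the genes that control it in the yeast Saccharomyces cerevisiae were followed across 2 strains and 4 media. The 7 genes were taken by identifier from the 6814 in the deposited tables: the large subunits RNR1 (YER070W) and RNR3 (YIL066C), the small subunits RNR2 (YJL026W) and RNR4 (YGR180C), the inhibitor SML1 (YML058W), the checkpoint kinase DUN1 (YDL101C) and HUG1 (YML058W-A). They were chosen by identifier as a pathway, with measured levels and fold changes of these same libraries in view, and which values led to the choice is not stated. Their fold changes and p-values are therefore descriptions and count as no independent evidence.

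Ribonucleotide reductase turns ribonucleotides into the deoxyribonucleotides (dNTPs) from which DNA is made. The large subunit binds the substrate and the small subunit holds an iron-based radical cofactor; Rnr1 is the main large subunit, and Rnr3 is a close relative that is scarce in unstressed cells. When DNA replication is blocked or DNA is damaged, the kinases Mec1 and Rad53 switch on Dun1, which marks the inhibitor Sml1 for destruction and relieves the repressor Crt1, the product of RFX1, at RNR2, RNR3, RNR4 and HUG1. HUG1 encodes a very small protein that binds the small subunit and is widely used as a readout of this checkpoint.

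The background strain was GA74-1A, and both strains carry deletions of the chromosomal PSD1 and PSD2 genes. PSD1 encodes the mitochondrial enzyme that makes phosphatidylethanolamine from phosphatidylserine and cuts itself at its LGS motif to mature. In the mutant strain (LG) the integrated construct is Psd1-LGS/AAA, with that motif changed, and in the control strain (WT) it is a functional Psd1-3XFLAG, so that the control is not an unmodified wild type. Whether either strain is a single transformant is not given in the sources used here. The media, each used for both strains, were YPD supplemented with ethanolamine at 2 mM (E), with 0.5 mM lyso-phosphatidylethanolamine (lyso-PE) plus 1% of the detergent tergitol (L), with choline at 2 mM (C) or with nothing added (D). Cells grew to an OD600 of 0.5 to 0.7, and the group names join strain and medium (LGE, WTE, LGL, WTL, LGC, WTC, LGD, WTD). There is no group with tergitol alone, so the detergent and the lipid cannot be told apart. Total RNA of whole cultures was sequenced in 3 libraries per group, 24 in all.

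Library totals ran between 16044470 and 20946936 counts. PSD1 had 7934 to 16977 counts per library; counts per gene cannot show the changed motif, so they do not check the strain labels. Replicates 1 and 2 of each group lay much closer to each other (Pearson r of log2 levels across genes 0.994 to 0.997) than to replicate 3 (0.928 to 0.988). The labels do not say that the replicates were separate cultures, and p-values measure only the spread between these libraries, which may in part be technical. Beside the main test, fold changes are therefore given where useful for replicates 1 and 2 and for replicate 3 on their own, and for a fit in which replicates 1 and 2 of each group were summed into 1 library. In that summed fit at most 4.65% of all genes passed the test described below in any comparison. Levels of a gene are in CPM, counts scaled to the library's TMM-adjusted total over all 24 libraries, listed for replicates 1, 2 and 3 in that order. A gene is said to rise or fall where edgeR's quasi-likelihood test over all genes gave a Benjamini-Hochberg adjusted p under 0.05, and errors of log2 fold changes are standard errors. In RNA from a whole culture, a different share of cells in the stage that uses a gene and a different amount of its RNA per cell cannot be told apart.

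The 7 genes lie on 6 chromosomes, at the coordinates of the deposited files, which equal those of the R64 assembly for all of them, and none overlaps another gene. RNR1 is on chromosome V (298950 to 301616, plus strand), RNR2 on X (392404 to 393603, plus strand), RNR3 on IX (238099 to 240708, minus strand), RNR4 on VII (855264 to 856301, minus strand) and DUN1 on IV (280307 to 281848, minus strand). HUG1 (158760 to 158966) and SML1 (159383 to 159697) are neighbours on the plus strand of chromosome XIII, with 416 bases and no gene between them.

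Promoter sequences of 4 of the genes are shown. They hold letters of the X box, the element that the repressor Crt1 binds, or of the MluI cell cycle box bound by the MBF factor. The stretch of RNR3 holds both. They were read from the RefSeq genome sequence of R64, 5′ to 3′ on the gene's strand. The stretches were placed by hand and do not hold every match, and that of HUG1 includes the first 50 bases of its coding sequence. Capitals mark every match within a stretch, on either strand, to GTTGCC, one arm of the X box, or to ACGCGT, which is its own reverse complement.
HUG1, chrXIII:158510-158809, plus strand: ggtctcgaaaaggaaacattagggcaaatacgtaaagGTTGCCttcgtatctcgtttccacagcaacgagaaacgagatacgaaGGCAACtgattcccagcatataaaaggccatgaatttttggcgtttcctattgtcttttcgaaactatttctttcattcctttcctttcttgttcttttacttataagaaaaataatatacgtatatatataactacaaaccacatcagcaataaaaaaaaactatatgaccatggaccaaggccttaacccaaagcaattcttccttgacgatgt
RNR3, chrIX:240709-241008, minus strand: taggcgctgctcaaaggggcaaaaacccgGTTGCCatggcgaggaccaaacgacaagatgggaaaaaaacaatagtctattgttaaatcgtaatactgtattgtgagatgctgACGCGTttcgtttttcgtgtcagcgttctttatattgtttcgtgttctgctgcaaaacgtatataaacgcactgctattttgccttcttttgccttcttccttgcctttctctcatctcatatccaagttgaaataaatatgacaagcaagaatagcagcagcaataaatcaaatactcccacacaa
RNR2, chrX:391904-392203, plus strand: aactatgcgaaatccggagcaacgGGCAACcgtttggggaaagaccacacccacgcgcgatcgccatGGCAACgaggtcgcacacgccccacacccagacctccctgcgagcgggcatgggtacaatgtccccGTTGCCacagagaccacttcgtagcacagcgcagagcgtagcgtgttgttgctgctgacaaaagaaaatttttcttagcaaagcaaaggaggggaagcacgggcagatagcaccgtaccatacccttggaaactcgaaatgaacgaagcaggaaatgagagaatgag
RNR1, chrV:298450-298749, plus strand: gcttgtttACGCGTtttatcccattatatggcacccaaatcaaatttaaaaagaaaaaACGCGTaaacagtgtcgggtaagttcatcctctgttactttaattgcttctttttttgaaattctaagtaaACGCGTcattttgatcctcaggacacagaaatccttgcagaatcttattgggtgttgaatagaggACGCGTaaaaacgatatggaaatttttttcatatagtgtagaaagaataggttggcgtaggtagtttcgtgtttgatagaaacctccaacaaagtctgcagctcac

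In HUG1 the letters GTTGCC stood 213 bases before the start codon, and their reverse complement stood 166 bases before it. RNR3 had GTTGCC at 271 bases and ACGCGT at 187 bases before its start codon, and a further ACGCGT at 546 bases, outside the stretch shown. RNR2 had GTTGCC at 367 bases and its reverse complement at 476 and 433 bases. RNR1 had 4 copies of ACGCGT in the stretch shown, at 492, 442, 371 and 306 bases, and a GTTGCC at 169 bases, outside it. Of the genes not shown, RNR4 had the reverse complement of GTTGCC at 386 bases and DUN1 had ACGCGT at 163 bases. Within 600 bases before the start codon, GTTGCC was found in 5 of the 7 genes and in 16.6% of 5999 promoters, and ACGCGT in 3 of the 7 and in 6.33%. A match is a run of letters in the genome sequence, and no binding was measured here.

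Whether reads of the related large subunit genes could be exchanged depends on the read length. The coding sequences of RNR1 and RNR3 were identical at 76.2% of 2610 aligned bases, with a longest shared run of 38 bases, and RNR2 and RNR4 at 67.0% of 1038 bases, with a longest run of 14. The read length is not given in the sources used here, so exchange of reads between RNR1 and RNR3 was not tested.

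On the length-scaled values deposited by the authors (FPKM), SML1, RNR4 and RNR2 were the abundant transcripts of the set and RNR1, RNR3, HUG1 and DUN1 the scarce ones. In LGD the means were 1785 ± 274 for SML1, 457 ± 8.99 for RNR4 and 329 ± 12.9 FPKM for RNR2, and in WTD they were 956 ± 95.4, 745 ± 74.0 and 566 ± 27.3 FPKM (SD, n = 3 each). HUG1 held the fourth place in LGD, with 112 ± 8.18 FPKM, followed by RNR1 with 58.4 ± 22.4, RNR3 with 22.7 ± 5.21 and DUN1 with 15.4 ± 2.6 FPKM. In WTD the order was RNR1 with 33.1 ± 0.530, RNR3 with 32.4 ± 3.21, HUG1 with 28.2 ± 1.14 and DUN1 with 17 ± 1.58 FPKM, and RNR1 and RNR3 did not differ beyond their spread.

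HUG1 was the gene of the set that separated the strains in every medium. It had 24.6, 23.4 and 22.1 CPM in LGD, against 6.65, 6.24 and 6.69 CPM in WTD. With ethanolamine it had 24.3, 24.2 and 21.2 CPM in LGE, against 2.99, 2.26 and 4.24 CPM in WTE. In both media every mutant library was several-fold above every control library. In the lyso-PE medium it had 33.6, 18.3 and 13.1 CPM in LGL, against 5.52, 5.42 and 5.32 CPM in WTL. With choline it had 19.9, 17.3 and 13.8 CPM in LGC, against 5.85, 3.03 and 3.79 CPM in WTC. The lowest of the 12 mutant libraries (13.1 CPM, LGL replicate 3) lay above the highest of the 12 control libraries (6.69 CPM, WTD replicate 3), with medians of 21.6 CPM in LG and 5.37 CPM in WT. Of all genes with a level in these libraries, 1.39% had all 12 mutant libraries above all 12 control libraries. The counts behind the levels were modest, 273 to 690 per library in the mutant and 39 to 118 in the control.

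Fitted medium by medium, HUG1 was higher in the mutant by 1.82 ± 0.11 on the log2 scale in plain YPD (adjusted p = 0.000680), by 2.85 ± 0.26 with ethanolamine (adjusted p = 0.0101), by 2.01 ± 0.36 in the lyso-PE medium (adjusted p = 0.0485) and by 1.99 ± 0.27 with choline (adjusted p = 0.00689). The share of all genes past the threshold was 36.8% for LGD vs WTD, 0.836% for LGE vs WTE, 1.52% for LGL vs WTL and 16.6% for LGC vs WTC. Replicates 1 and 2 and replicate 3 showed the same direction in each medium, with log2 ratios of 1.90 and 1.72 in plain YPD, 3.20 and 2.32 with ethanolamine, 2.24 and 1.30 in the lyso-PE medium, and 2.06 and 1.87 with choline. In the fit with replicates 1 and 2 summed, the adjusted p was 0.0455 in plain YPD, 0.158 with ethanolamine, 0.692 in the lyso-PE medium and 0.0901 with choline. In these summed fits 1.53%, 0.0159%, 0% and 0% of all genes passed, in the same order. With ethanolamine the call was lost without WTE replicate 1 (adjusted p = 0.0819) or WTE replicate 2 (adjusted p = 0.0520). In the lyso-PE medium it was lost without LGL replicate 1, where the log2 fold change was 1.5 (adjusted p = 0.184), and also without LGL replicate 2 or any of the 3 WTL libraries (adjusted p = 0.0562 to 0.262), and with DESeq2's size factors (adjusted p = 0.0514).

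**Figure D1:**
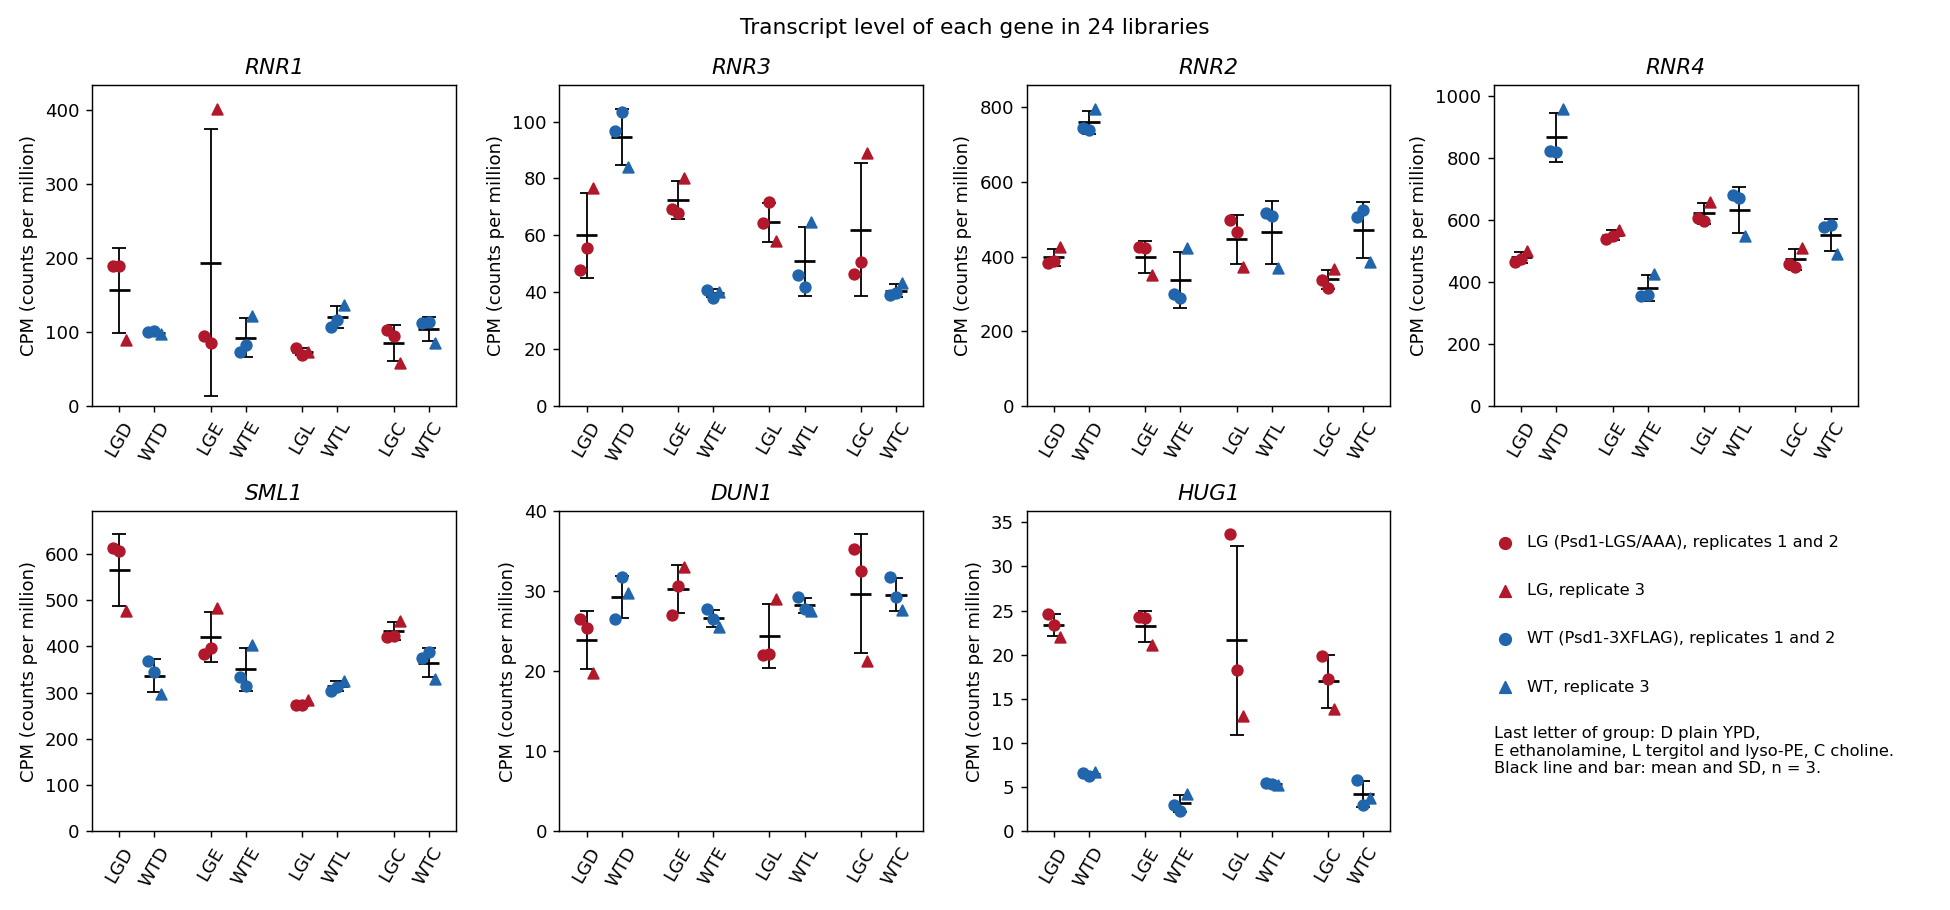
Level of each of the 7 genes in CPM (y axis, from 0) in the 24 libraries, by group (x axis), with the mutant left of the control in each medium; circles are replicates 1 and 2, triangles replicate 3, and black lines and bars the mean and SD of 3. HUG1 lay at 13.1 CPM or more in every mutant library and at 6.69 CPM or less in every control library, while RNR2 and RNR4 were highest in WTD.

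The small subunit genes, RNR2, which encodes the subunit that carries the radical, and RNR4, whose product assists Rnr2 in forming its cofactor, stood out in WTD rather than by strain. RNR2 had 382, 387 and 425 CPM in LGD, against 744, 740.4 and 797 CPM in WTD. RNR4 had 464, 471 and 499 CPM in LGD, against 820.2, 818 and 958 CPM in WTD. The groups did not overlap for either gene, as they did not for 53.1% of all genes. RNR2 fell in LGD (log2 fold change -0.96 ± 0.11, adjusted p = 0.00185), and so did RNR4 (log2 fold change -0.88 ± 0.12, adjusted p = 0.00292), where 17.3% of all genes fell. The log2 ratio in replicates 1 and 2 and in replicate 3 was -0.95 and -0.91 for RNR2, and -0.81 and -0.94 for RNR4. Summing replicates 1 and 2 raised the adjusted p to 0.0821 for RNR2 and 0.0951 for RNR4.

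Every WTD library lay above every other library for both genes. The lowest RNR2 level in WTD was 740.4 CPM and the highest in the other 21 libraries 524 CPM (WTC replicate 2). The lowest RNR4 level in WTD was 818 CPM and the highest elsewhere 679 CPM (WTL replicate 1). Of all genes, 4.3% had their 3 WTD libraries above the other 21. Beside those levels, the supplemented control libraries ran lower. RNR2 had 301, 289 and 423 CPM in WTE, 518, 509 and 369 CPM in WTL and 506, 524 and 387 CPM in WTC. RNR4 had 354, 357 and 426 CPM in WTE, 679, 669 and 546 CPM in WTL and 576, 583 and 489 CPM in WTC. In the mutant the supplemented groups stayed nearer to LGD, with RNR2 at 399 ± 42.4 CPM in LGE, 446 ± 65.0 CPM in LGL and 339 ± 25.6 CPM in LGC (SD, n = 3 each), and RNR4 at 550.2 ± 15.2, 619.9 ± 32.9 and 471 ± 32.8 CPM in the same order.

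Against WTD, which all 3 of these comparisons share with LGD vs WTD, RNR2 fell in every supplemented group, with log2 fold changes of -1.15 ± 0.17 in WTE (adjusted p = 0.00288), -0.70 ± 0.15 in WTL (adjusted p = 0.0261) and -0.66 ± 0.13 in WTC (adjusted p = 0.0157). RNR4 fell with log2 fold changes of -1.17 ± 0.14 in WTE (adjusted p = 0.00130) and -0.63 ± 0.12 in WTC (adjusted p = 0.0124), and in WTL its log2 fold change of -0.45 ± 0.13 did not pass (adjusted p = 0.0644). The threshold was passed by 22.6% of all genes for WTE vs WTD, 12.7% for WTL vs WTD and 19.1% for WTC vs WTD. After summing replicates 1 and 2, only the RNR4 value in WTE kept an adjusted p under the threshold among these 5 calls (0.0454), against 0.0667 to 0.258 for the others. In these summed fits 4.65%, 0% and 0.225% of all genes passed for WTE, WTL and WTC. The RNR2 call in WTL was lost without WTL replicate 1, WTL replicate 2 or any of the 3 WTD libraries (adjusted p = 0.0624 to 0.110), and that in WTC without WTD replicate 1 or 2 (adjusted p = 0.0639 and 0.0605). RNR4 in WTL passed without WTL replicate 3 (adjusted p = 0.0259) and by DESeq2's Wald test (adjusted p = 0.0104).

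Between the strains with a supplement, neither small subunit gene passed the test. RNR4 had log2 fold changes of 0.52 ± 0.16 for LGE vs WTE, -0.01 ± 0.14 for LGL vs WTL and -0.25 ± 0.13 for LGC vs WTC, and RNR2 had 0.23 ± 0.20, -0.04 ± 0.19 and -0.50 ± 0.15 in the same order. RNR4 was higher in LGE without LGE replicate 3 (adjusted p = 0.0487), and RNR2 was lower in LGC without LGC replicate 3 or WTC replicate 3 (adjusted p = 0.0340 and 0.0160). By DESeq2's Wald test RNR4 was higher in LGE (adjusted p = 0.0122) and RNR2 lower in LGC (adjusted p = 0.0105). In the mutant, RNR4 was higher in LGL than in LGD without LGD replicate 3 (adjusted p = 0.0375) and by DESeq2's Wald test (adjusted p = 0.0218).

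RNR3, the large subunit gene best known for its induction after DNA damage, had 47.7, 55.5 and 76.6 CPM in LGD, against 96.8, 103 and 83.9 CPM in WTD. The groups did not overlap, as for 53.1% of all genes, but LGD replicate 3 came near the lowest WTD library. RNR3 fell in LGD (log2 fold change -0.68 ± 0.18, adjusted p = 0.0268), where 17.3% of all genes fell. Replicates 1 and 2 gave a log2 ratio of -0.96 and replicate 3 one of -0.13. The call was lost without LGD replicate 1 or 2 or WTD replicate 1 or 2 (adjusted p = 0.0734 to 0.0941) and after summing replicates 1 and 2 (adjusted p = 0.216). In the control it had 40.7, 38.1 and 40.1 CPM in WTE, 45.9, 41.9 and 64.5 CPM in WTL and 39.0, 39.5 and 43.0 CPM in WTC, all below the 3 WTD libraries. Such a separation, in either direction, held for 42.6% of all genes in WTE, 40.3% in WTL and 39.4% in WTC. The log2 fold changes were -1.24 ± 0.10 (adjusted p = 0.000276), -0.89 ± 0.18 (adjusted p = 0.0236) and -1.20 ± 0.10 (adjusted p = 0.00134), all falls, where 11%, 5.92% and 9.05% of all genes fell. Summing replicates 1 and 2 gave them an adjusted p of 0.0104, 0.258 and 0.0507, in the same order, and the call in WTL was lost without any single library other than WTL replicate 3 (adjusted p = 0.0531 to 0.116).

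In the mutant the RNR3 levels were 69.4, 67.9 and 80.0 CPM in LGE, 64.2, 71.6 and 58.0 CPM in LGL and 46.3, 50.6 and 88.8 CPM in LGC, and none of the 3 differed from LGD by the test (log2 fold changes 0.30 ± 0.20, 0.11 ± 0.19 and 0.05 ± 0.30). With ethanolamine the strains stood the other way round than in plain YPD, every LGE library lying above every WTE library (groups did not overlap for 26.1% of all genes), by 0.85 ± 0.12 on the log2 scale (adjusted p = 0.0393), where replicates 1 and 2 gave 0.80 and replicate 3 gave 1.00. That call was lost with replicates 1 and 2 summed (adjusted p = 0.745) and without any single library other than LGE replicate 3 (adjusted p = 0.0732 to 0.234). In the lyso-PE medium and with choline the log2 fold changes of RNR3 between the strains were 0.36 ± 0.19 (adjusted p = 0.284) and 0.59 ± 0.25 (adjusted p = 0.151).

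RNR1, which encodes the main large subunit and is transcribed late in G1, had the widest spread of the 7 genes among the LGD and LGE replicates (coefficients of variation 37.2% and 93.3%), and the narrowest in WTD (2.12%). It had 189, 189.7 and 89.0 CPM in LGD, against 99.5, 101 and 96.6 CPM in WTD. LGD replicates 1 and 2 lay above all WTD libraries and LGD replicate 3 below them, so the log2 ratio was 0.92 in replicates 1 and 2 and -0.12 in replicate 3. The fitted log2 fold change of 0.64 ± 0.28 did not pass (adjusted p = 0.113), and without LGD replicate 3 it was 0.90 (adjusted p = 1.99e-05). The widest spread was in LGE, with 93.7, 84.9 and 402 CPM, against 73.2, 81.5 and 122 CPM in WTE. LGE replicate 3 had the highest RNR1 level of all 24 libraries, and the next highest was 189.7 CPM in LGD replicate 2. The log2 fold change between LGE and WTE was 1.04 ± 0.59 with LGE replicate 3 (adjusted p = 0.427) and -0.046 without it. Between LGE and LGD it was 0.34 ± 0.66 with that library (adjusted p = 0.925) and -0.81 without it. Of the other 6 genes, RNR3, RNR4, SML1 and DUN1 were also higher in LGE replicate 3 than in LGE replicates 1 and 2, RNR2 and HUG1 were lower, and none of the 6 had its highest level of the 24 libraries there.

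In the lyso-PE medium RNR1 had 77.8, 69.2 and 72.4 CPM in LGL, against 107, 117 and 136 CPM in WTL, without overlap, as for 29.7% of all genes. The log2 fold change was -0.70 ± 0.13 (adjusted p = 0.0539); replicates with the same number shared their deviations in these groups, and blocking on that number, by which 20.1% of all genes passed, RNR1 fell (log2 fold change -0.69, adjusted p = 0.0140). Without LGL replicate 3 or WTL replicate 3 it also passed (adjusted p = 0.0273 and 0.0423), as it did by DESeq2's Wald test (adjusted p = 0.000326). It did not pass after summing replicates 1 and 2 (adjusted p = 0.692), where 0% of all genes passed. Against LGD, RNR1 fell in LGL (log2 fold change -1.09 ± 0.28, adjusted p = 0.0445), where 13.3% of all genes passed, with log2 ratios of -1.37 in replicates 1 and 2 and -0.30 in replicate 3. That call was lost without any single library other than LGD replicate 3 (adjusted p = 0.0736 to 0.171) and after summing replicates 1 and 2 (adjusted p = 0.421). With choline it had 103, 94.8 and 57.8 CPM in LGC, against 112, 114 and 84.9 CPM in WTC, and no difference between these groups passed (adjusted p = 0.387). In the control, no supplement moved RNR1 past the threshold, with log2 fold changes of -0.08 ± 0.18 in WTE, 0.28 ± 0.11 in WTL and 0.09 ± 0.12 in WTC. RNR1 was lower in WTE without WTE replicate 3 (-0.35, adjusted p = 0.00724) and higher in WTC without WTC replicate 3 (0.20, adjusted p = 0.0444).

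SML1, which encodes the inhibitor that binds the large subunit, had 614, 606 and 476 CPM in LGD, against 369, 344 and 298 CPM in WTD. All 3 LGD libraries lay above the WTD libraries, where the groups did not overlap for 53.1% of all genes. SML1 rose by 0.72 ± 0.15 (log2 fold change, adjusted p = 0.0118), where 19.5% of all genes rose. The log2 ratio was 0.77 in replicates 1 and 2 and 0.68 in replicate 3. Without WTD replicate 2 the adjusted p was 0.0524, and after summing replicates 1 and 2 it was 0.152. In the supplemented media the strains were closer. SML1 had 383, 396 and 482 CPM in LGE, against 334, 314 and 403 CPM in WTE. It had 273, 273 and 283 CPM in LGL, against 305, 313 and 326 CPM in WTL, and 421, 423 and 455 CPM in LGC, against 376, 389 and 329.8 CPM in WTC. The strain difference did not pass in these 3 media, with log2 fold changes of 0.25 ± 0.17, -0.17 ± 0.11 and 0.22 ± 0.12. Against LGD, SML1 fell in LGL (log2 fold change -1.03 ± 0.16, adjusted p = 0.0171), where 7.43% of all genes fell. That call was lost without LGL replicate 1 or 2 or LGD replicate 1 or 2 (adjusted p = 0.0835 to 0.116) and with replicates 1 and 2 summed (adjusted p = 0.359).

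SML1 and its neighbour HUG1 did not follow each other across media. In LGL replicate 1, SML1 was at the bottom of its range over the 24 libraries (273 CPM) while HUG1 had its highest level (33.6 CPM). In LGL replicates 2 and 3, SML1 had 273 and 283 CPM and HUG1 18.3 and 13.1 CPM, the latter its lowest level in the mutant. Over the 24 libraries, which share strains, media and the replicate structure, the log2 CPM of SML1 and HUG1 had a Pearson r of 0.41, while RNR2 and RNR4 had 0.89 and RNR1 and RNR3 -0.02.

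DUN1, the checkpoint kinase, was the lowest member per length in LGD and WTD and had the narrowest range over the 24 libraries. It had 26.5, 25.4 and 19.8 CPM in LGD, against 26.5, 31.7 and 29.8 CPM in WTD, so that the ranges of the groups met at 26.5 CPM. The log2 fold change was -0.32 ± 0.14 (adjusted p = 0.122). Over all 24 libraries its level ran between 19.8 and 35.3 CPM, and it passed the threshold in none of the 10 pairwise comparisons, the fitted log2 fold changes lying between -0.32 and 0.36.

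**Figure D2:**
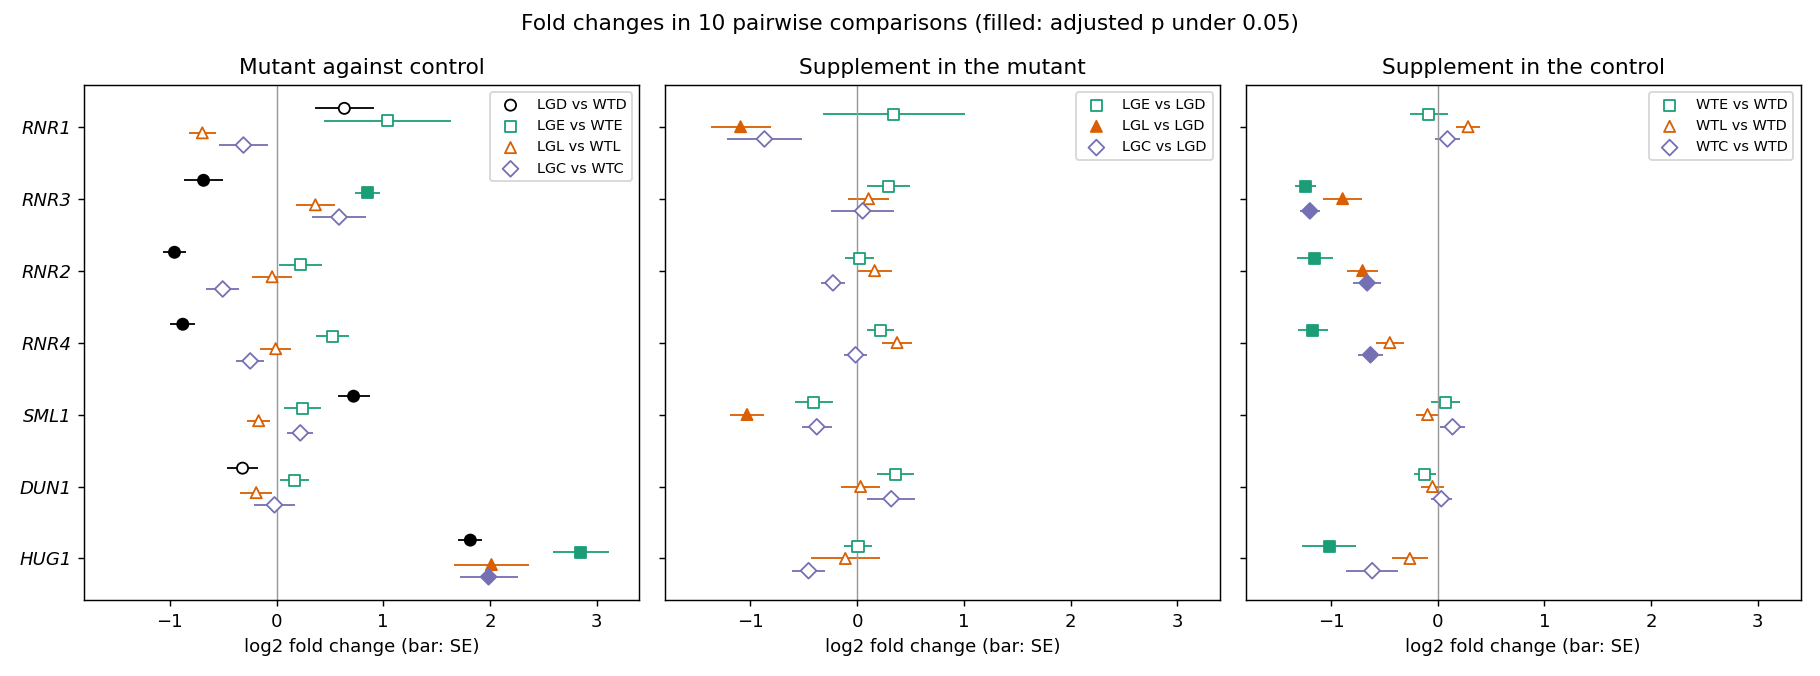
Log2 fold change of each gene (x axis; bars are standard errors) in the 10 pairwise comparisons, mutant over control at the left, supplement over plain YPD in the mutant in the middle and in the control at the right; filled symbols passed an adjusted p of 0.05. HUG1 was to the right of 0 in all 4 strain comparisons, and RNR2, RNR3 and RNR4 were to the left of 0 in all 3 supplement comparisons of the control.

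Counted over the set, 5 of the 7 genes passed for LGD vs WTD, 2 higher (SML1 and HUG1) and 3 lower (RNR2, RNR3 and RNR4), where 19.5% of all genes rose and 17.3% fell. Groups did not overlap for 6 of the 7 genes (DUN1 by less than the last digit shown), a separation that 53.1% of all genes showed. In the other media, HUG1 and RNR3 passed for LGE vs WTE and HUG1 for LGL vs WTL and for LGC vs WTC. In the mutant none of the 7 passed for LGE vs LGD, where 0.225% of all genes did. An unadjusted p under 0.05 was found for 0 of the 7 and for 598 of 6213 genes, and DESeq2 called 0 of the 7 and 2.48% of the genes it tested. RNR1 and SML1 fell for LGL vs LGD, where 7.43% of all genes fell. None of the 7 passed for LGC vs LGD, where 0% of all genes did. An unadjusted p under 0.05 was found for 3 of the 7 and for 899 of 6198 genes, and DESeq2 called 0 of the 7 and 4.97% of the genes it tested. LGC and LGD replicates with the same number shared their deviations, and blocking on that number, by which 24.6% of all genes passed, 3 genes fell in LGC, with log2 fold changes of -0.83 for RNR1 (adjusted p = 0.00709), -0.23 for RNR2 (adjusted p = 0.0474) and -0.47 for HUG1 (adjusted p = 0.0377). After summing replicates 1 and 2, where 0% of all genes passed, the adjusted p of each of these 3 was 0.921. In the control 4 genes fell in WTE (11% of all genes fell), 2 in WTL (5.92%) and 3 in WTC (9.05%), and none rose in these 3 comparisons. The fourth gene in WTE was HUG1, with 2.99, 2.26 and 4.24 CPM against 6.65, 6.24 and 6.69 CPM for WTD (log2 fold change -1.02 ± 0.25, adjusted p = 0.0236). That call was lost without any single library other than WTE replicate 3 (adjusted p = 0.0654 to 0.0821), and the corresponding value in WTC passed without WTC replicate 1 (adjusted p = 0.0463).

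**Figure D3:**
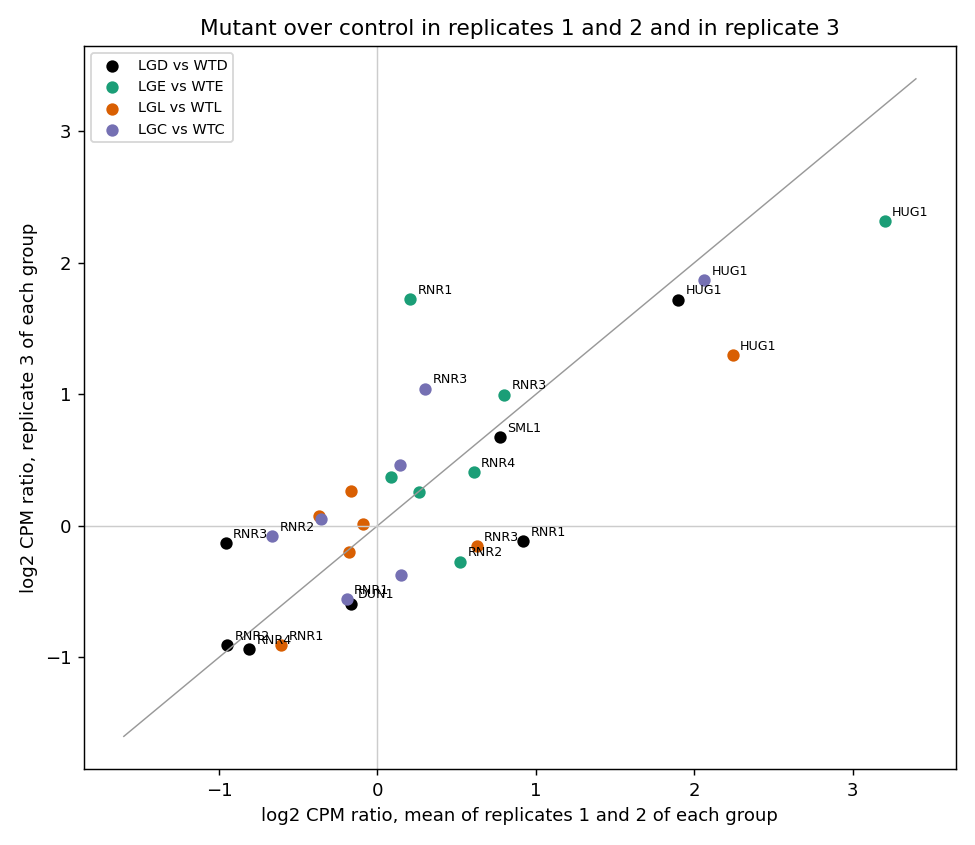
Log2 CPM ratio of mutant over control in replicate 3 (y axis) against the ratio of the means of replicates 1 and 2 (x axis) for the 7 genes in the 4 media, genes beyond 0.5 in either direction being named; the line marks equal ratios. HUG1 was at the upper right in every medium, and RNR1 in plain YPD had a ratio of 0.92 in replicates 1 and 2 and -0.12 in replicate 3.

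Whether the strains responded differently to a supplement was asked with an interaction term over 12 libraries, in which a positive value means that the supplement moved the gene further up, or less far down, in LG than in WT. All 3 of these terms share the LGD and WTD libraries. For ethanolamine 4 of the 7 genes passed, where 5.3% of all genes did and 2.8% did so upward: RNR3 by 1.53 ± 0.23 (adjusted p = 0.00474), RNR4 by 1.40 ± 0.18 (adjusted p = 0.00343), RNR2 by 1.18 ± 0.23 (adjusted p = 0.0137) and HUG1 by 1.03 ± 0.27 (adjusted p = 0.0487). For RNR4, ethanolamine changed the level by 0.22 in LG and by -1.17 in WT on the log2 scale. For the lyso-PE medium 5 passed, where 25.2% of all genes did, 12.2% upward and 13% downward. RNR2 by 0.88 ± 0.23 (adjusted p = 0.0162), RNR3 by 1.02 ± 0.27 (adjusted p = 0.0194) and RNR4 by 0.84 ± 0.19 (adjusted p = 0.00907) were positive, and RNR1 by -1.36 ± 0.33 (adjusted p = 0.0120) and SML1 by -0.92 ± 0.19 (adjusted p = 0.00610) were negative. For choline none of the 7 passed, where 0.863% of all genes did. An unadjusted p under 0.05 was found for 5 of the 7 and for 1639 of 6254 genes. DESeq2 called 3 of the 7 (RNR3, RNR4 and SML1) and 11.7% of the genes it tested. The estimates of RNR3 and RNR4 were 1.27 ± 0.34 and 0.63 ± 0.16.

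Once replicates 1 and 2 were summed, none of these 9 interaction terms had an adjusted p under 0.05. In those fits 0.0314% of all genes passed for ethanolamine and 0% for the lyso-PE medium. The HUG1 term for ethanolamine was lost without any single library other than WTE replicate 3 or LGE replicate 3 (adjusted p = 0.0574 to 0.131), and the RNR2 term without LGD replicate 1 (adjusted p = 0.0503). The RNR3 term for the lyso-PE medium was lost without replicate 1 or 2 of WTD, WTL or LGD, or without LGL replicate 2 (adjusted p = 0.0503 to 0.0600). For choline, without LGD replicate 3, RNR1 (-1.21, adjusted p = 0.0164), RNR3 (1.5, adjusted p = 0.0142), RNR4 (0.67, adjusted p = 0.0220) and SML1 (-0.60, adjusted p = 0.0278) passed.

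Around the enzyme, 7 lists of genes were looked at in plain YPD, where the median log2 fold change of all genes was 0.01. Of their 88 genes tested, 21 rose and 12 fell in LGD, 37.5% in all, beside 36.8% of all genes (19.5% higher and 17.3% lower). Of 14 checkpoint kinases, sensors and adaptors, 3 rose and 1 fell in LGD, with a median of 0.10. RAD9, the adaptor that brings Rad53 to damaged DNA, rose by 0.59 ± 0.12 (adjusted p = 0.0108), and DPB11 and CSM3, which act at stalled forks and in replication, by 0.48 ± 0.12 and 0.59 ± 0.17 (adjusted p = 0.0222 and 0.0343). RAD53, the kinase above Dun1, fell (log2 fold change -0.62 ± 0.19, adjusted p = 0.0402), and MEC1, the kinase above Rad53, had a log2 fold change of 0.22 ± 0.09 (adjusted p = 0.0877). Of 10 DNA damage-induced repair genes measured (PHR1 was not analysed here), 1 rose and 1 fell, with a median of -0.15: RAD7, of nucleotide excision repair, rose by 0.43 ± 0.13 (adjusted p = 0.0365), and PLM2 fell (log2 fold change -0.36 ± 0.09, adjusted p = 0.0209).

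Of 12 regulators of ribonucleotide reductase, 1 rose and 3 fell, with a median of -0.15. RFX1, which encodes the repressor Crt1, fell in LGD (log2 fold change -1.08 ± 0.21, adjusted p = 0.00991), while 3 of the 4 genes named above as its targets (RNR2, RNR3 and RNR4) were lower there and HUG1 higher. CYC8, a part of the co-repressor that Crt1 recruits, fell (log2 fold change -0.39 ± 0.11, adjusted p = 0.0323). WTM1, which holds the small subunit in the nucleus, fell (log2 fold change -0.76 ± 0.18, adjusted p = 0.0164), and its relative WTM2 rose by 0.44 ± 0.11 (adjusted p = 0.0197). DIF1, which carries the small subunit into the nucleus, had a log2 fold change of 0.24 ± 0.13 (adjusted p = 0.188).

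Of 7 genes for building and reducing the enzyme's cofactor and disulfides, 3 rose and 4 did not pass, with a median of 0.33. Those that rose were TAH18 and DRE2, an electron transfer pair, with 1.15 ± 0.27 and 0.73 ± 0.17 (adjusted p = 0.0164 and 0.0174), and GRX3, a glutaredoxin of iron delivery, with 0.42 ± 0.09 (adjusted p = 0.0134). Of 10 other enzymes of dNTP synthesis, 3 rose and 3 fell, with a median of 0.33. The CTP synthase genes moved apart, URA7 rising by 2.18 ± 0.37 (adjusted p = 0.00614) and URA8 falling (log2 fold change -1.07 ± 0.17, adjusted p = 0.00516). DFR1, dihydrofolate reductase, rose by 0.86 ± 0.13 (adjusted p = 0.00450) and YNK1, the nucleoside diphosphate kinase, fell (log2 fold change -0.82 ± 0.11, adjusted p = 0.00279).

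Of 20 replication genes of the G1/S wave, to which RNR1 belongs, 3 rose and 2 fell, with a median of 0.12. SMC3, a cohesin subunit, rose by 1.20 ± 0.15 (adjusted p = 0.00241) and POL3, a replicative polymerase, by 0.78 ± 0.17 (adjusted p = 0.0145), while SWI4, a G1 transcription factor, fell (log2 fold change -0.57 ± 0.12, adjusted p = 0.0134) and so did RFA2, of the single-strand binding complex (log2 fold change -0.36 ± 0.11, adjusted p = 0.0413). Of 15 genes of the iron regulon measured (FIT2, FIT3 and ARN2 were not analysed here), 7 rose and 2 fell, with a median of 0.58. SIT1 and ARN1, siderophore transporters, rose by 2.19 ± 0.36 and 1.5 ± 0.24 (adjusted p = 0.00559 and 0.00507), and TIS11, which encodes an RNA-binding protein that turns over mRNAs when iron is short, rose by 1.91 ± 0.24 (adjusted p = 0.00241), while ENB1, another siderophore transporter, fell (log2 fold change -0.69 ± 0.13, adjusted p = 0.00793). With replicates 1 and 2 summed, where 1.53% of all genes passed, none of these list genes did. Each of the 6 libraries was also left out in turn. The calls of CSM3, RAD53, DPB11, PLM2, RAD7, RFA2, WTM1 and TAH18 were lost in 5 of these 6 fits. The calls of CYC8, WTM2 and GRX3 were lost in 4 of them, that of POL3 in 3 and that of SWI4 in 1. Those of RAD9, RFX1, DRE2, URA7, URA8, DFR1, YNK1, SMC3, SIT1, ARN1, TIS11 and ENB1 remained in all 6 such fits.

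**Figure D4:**
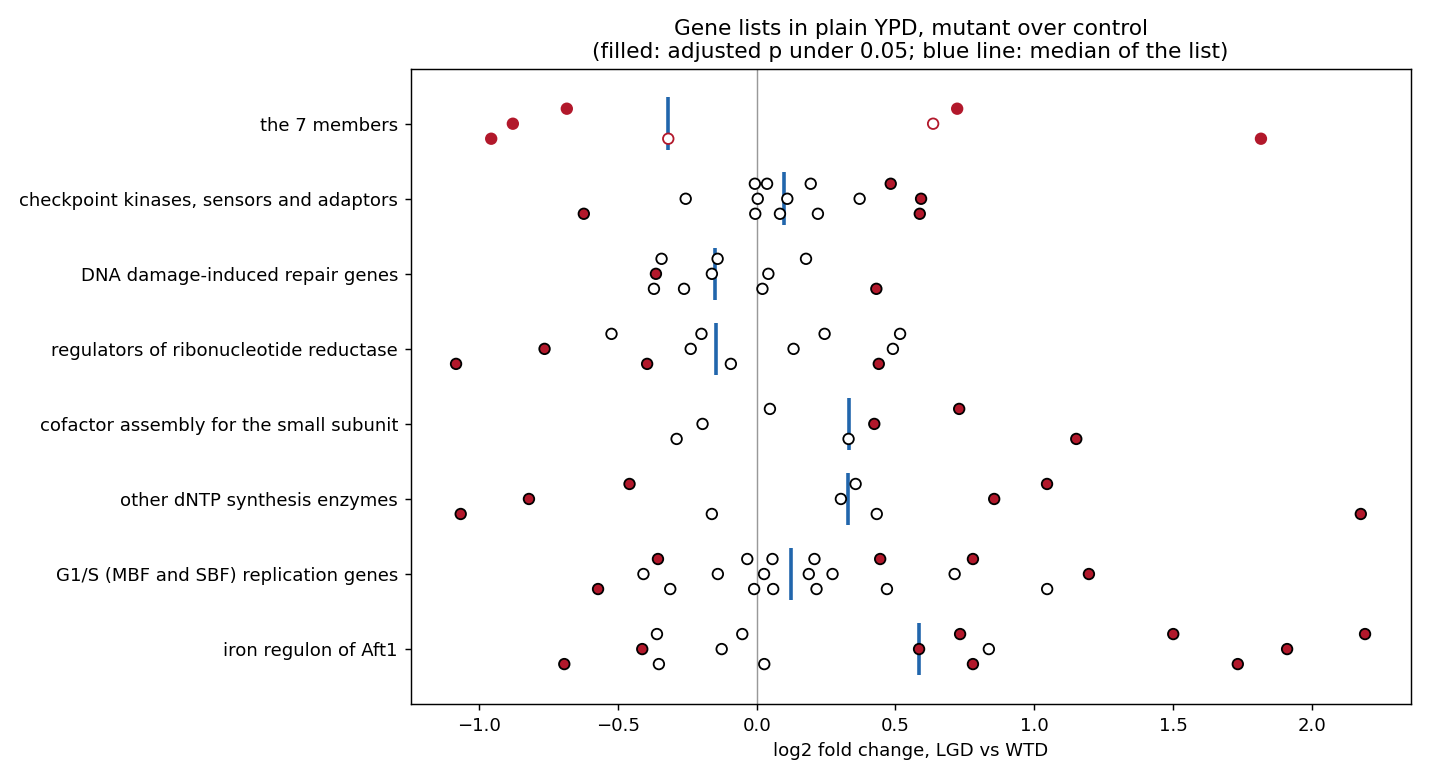
Log2 fold change in LGD over WTD (x axis) of the 7 genes (top row, red outlines) and of the genes of 7 lists (rows); filled symbols passed an adjusted p of 0.05 and blue bars are medians. The iron regulon had the highest list median (0.58), and the checkpoint list had one of 0.10 beside 0.01 for all genes.

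With a supplement, 3 of the 88 list genes passed for LGE vs WTE (3.41%, beside 0.836% of all genes), all of them iron regulon genes higher in LGE. For LGL vs WTL edgeR called 0 of the 88, beside 1.52% of all genes. An unadjusted p under 0.05 was found for 15 of the 88 and for 1475 of 6169 genes, and DESeq2 called 10 of the 88 and 12.6% of the genes it tested. For LGC vs WTC 11 list genes were higher and 2 lower in LGC, 14.8% beside 16.6% of all genes. The higher ones were 3 repair genes, 3 iron regulon genes, 2 regulators, 2 G1/S genes and 1 dNTP enzyme, and the lower ones 1 iron regulon gene and 1 dNTP enzyme. In the control, 20 of the 88 list genes passed in WTE (12 higher, 8 lower), 12 in WTL (9 higher, 3 lower) and 15 in WTC (12 higher, 3 lower). These were 22.7%, 13.6% and 17%, beside 22.6%, 12.7% and 19.1% of all genes past the threshold in either direction. Falls alone made up 11%, 5.92% and 9.05% of all genes. Of the 20 G1/S genes, 6 rose and 1 fell in WTE, 3 rose in WTL and 4 rose in WTC. The median of the G1/S list was 0.08, 0.29 and 0.14.

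Among 5797 genes with a mean of at least 50 counts, those whose log2 CPM most resembled the pattern of a member over the 24 libraries were ranked by Pearson r. For HUG1 they were COX10 (r = 0.94), ATG40 (0.94) and PDR5 (0.93). For RNR1 they were YMR209C (0.91), TMN3 (0.88) and CLB2 (0.88). For RNR3 they were MIN7 (0.85), YKL107W (0.82) and TIP1 (0.80). The libraries share strains, media and replicate structure, and the highest RNR1 value, in LGE replicate 3, weighs on its ranking.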

How the data were processed

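RNA of 24 libraries (2 strains, 4 media, 3 replicates) was sequenced; per the submitters' processing notes the tools included CASAVA, STAR 2.5, HTSeq 0.6.1 and DESeq2. The genome build, the annotation, the read length and whether counting used strand are not given in the sources used here. The authors deposited 7 tables, each of 2 groups, with whole-number read counts per gene, a signal (the counts divided by a size factor per library, by the authors), and FPKM values, per the file headers. The tables also give, for the 2 groups of each, the authors' log2 fold change and p-value per gene. Counts were used as deposited for all tests and CPM, and the deposited FPKM only to set genes side by side; those fold changes and p-values were not used. Libraries present in several tables had the same counts (0 differences). Of 5924 gene identifiers matched to the RefSeq R64 table, 5915 had the same start and end.

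Counts of the 6 libraries of each pair of groups, or of 12 for an interaction, were fitted with edgeR 4.0.16 (TMM, filterByExpr, glmQLFit and glmQLFTest; R 4.3.3), with Benjamini-Hochberg adjustment over all genes tested. All 7 genes passed the filter in every comparison. Standard errors came from the F statistic, and log2 CPM for correlations had a prior count of 2. Depth was 16044470 to 20946936 counts per library, so that the scarcest value, 39 counts of HUG1 in WTE replicate 2, carries the largest counting error. The tests were tried on simulated counts before use. Groups came from the sample titles. The 7 genes, the gene lists and the rule for named genes were chosen with earlier results of these data known. That rule names the members, up to 4 called genes per list, by lowest p for LGD vs WTD, MEC1, RAD53, RFX1 and DIF1, and the 3 genes most like RNR1, RNR3 and HUG1. In the repair list 1 further gene is not reported here, and its counts and median are without it.

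Replicate numbers come from the labels, which tie them to no day or batch. Across genes, the deviations from the group mean of libraries that share a number correlated between -0.62 and 0.71. All 3 numbers exceeded 0.1 in 4 comparisons (WTE vs WTD, LGC vs WTC, LGC vs LGD and LGL vs WTL); since replicates 1 and 2 nearly coincide, this is mostly the contrast of replicate 3 with the others. Alternatives were DESeq2's size factors, no filter, DESeq2 1.42.0's Wald test, the replicate number as a block, replicates 1 and 2 summed or alone, and each library left out.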

Additional observations from a re-analysis of the deposited data

Results flagged for a closer look

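The response to a supplement differed between the strains, by the interaction term, for 9 combinations of gene and medium; each value is the log2 fold change of supplement over plain YPD in LG minus that in WT. With ethanolamine it was 1.18 ± 0.23 for RNR2 (log2 fold changes 0.02 in LG and -1.15 in WT), 1.53 ± 0.23 for RNR3 (0.30 in LG and -1.24 in WT), 1.40 ± 0.18 for RNR4 (0.22 in LG and -1.17 in WT) and 1.03 ± 0.27 for HUG1 (0.01 in LG and -1.02 in WT). In the lyso-PE medium it was -1.36 ± 0.33 for RNR1 (-1.09 in LG and 0.28 in WT), 0.88 ± 0.23 for RNR2 (0.16 in LG and -0.70 in WT), 1.02 ± 0.27 for RNR3 (0.11 in LG and -0.89 in WT), 0.84 ± 0.19 for RNR4 (0.37 in LG and -0.45 in WT) and -0.92 ± 0.19 for SML1 (-1.03 in LG and -0.10 in WT). All 9 terms share the LGD and WTD libraries, and none kept an adjusted p under 0.05 with replicates 1 and 2 summed. RNR4 averaged 379 ± 40.8 CPM in WTE, its lowest group, and 865 ± 80.0 CPM in WTD, its highest (SD, n = 3 each).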

How the results depend on the processing

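Of the fold changes of single members recomputed under the alternatives, 1004 kept direction and side of the threshold, 99 lost the call, 67 gained it and 48 changed sign. Leaving out each library in turn, the number of the 7 genes called ranged from 3 to 6 for LGD vs WTD, 0 to 0 for LGE vs LGD and LGC vs LGD, 0 to 3 for LGL vs LGD, WTL vs WTD and LGE vs WTE, 3 to 5 for WTE vs WTD, 2 to 4 for WTC vs WTD and for the ethanolamine interaction, 0 to 2 for LGL vs WTL, 1 to 2 for LGC vs WTC, 4 to 5 for the lyso-PE interaction and 0 to 4 for the choline interaction. In the main fits the share of all genes called ran from 0% (LGC vs LGD) to 36.8% (LGD vs WTD). Their share in each fit with a library left out is not given here, so these ranges are no result about the 7 genes in particular. With replicates 1 and 2 summed the number of the 7 called was 1 for LGD vs WTD (5 otherwise), where 1.53% of all genes passed. It was 2 for WTE vs WTD (4 otherwise), where 4.65% passed, and 0 in all other comparisons, where 0% to 0.225% passed. Fewer libraries enter these fits. With the replicate number as a block the number of the 7 called became 0 for LGL vs LGD, WTL vs WTD and LGE vs WTE. In these 0%, 0.0163% and 0.113% of all genes passed. It became 1 for WTC vs WTD and the choline interaction (0.946% and 6.88% of all genes), 2 for LGL vs WTL (20.1%) and 3 for LGC vs LGD (24.6%). The block changed no other count by over 1.5 times. In the comparisons where numbers did not pair the libraries, this block is only a shared number. Replicates 1 and 2 alone, which call between 52.7% and 70.0% of all genes, gave 5 for LGE vs LGD, LGL vs LGD, LGC vs LGD, WTL vs WTD, WTC vs WTD and the choline interaction, and 6 for LGE vs WTE, LGL vs WTL and LGC vs WTC. DESeq2's size factors gave 0 for LGL vs WTL, where 0.616% of all genes passed, and changed the median fold change of all genes by less than 0.1 in every comparison. DESeq2's Wald test gave 2 for LGL vs WTL, 2 for LGC vs WTC and 3 for the choline interaction, where it called 12.6%, 25.4% and 11.7% of the genes it tested. It gave 3 for LGL vs LGD, WTL vs WTD and LGE vs WTE, where it called 23.8%, 20.9% and 7.33%.

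Log2 fold changes that turned sign were all uncalled in the main fit. RNR1 in LGE vs LGD (0.34) was -0.085 with the block, -1.09 in replicates 1 and 2 alone and -0.81 to 0.70 with a library left out; its ethanolamine interaction (0.42) was -0.71 in replicates 1 and 2 alone and -0.71 to 0.75 with a library left out. With replicates 1 and 2 summed, RNR2 in LGE vs LGD was -0.044, RNR3 in LGL vs LGD -0.027, RNR1 in WTE vs WTD 0.034 and RNR4 in LGL vs WTL 0.062. With replicates 1 and 2 alone, DUN1 was -0.23 in LGL vs LGD, 0.12 in LGC vs WTC and -0.16 in the lyso-PE interaction, HUG1 0.12 in LGL vs LGD, RNR3 -0.084 in LGC vs LGD and SML1 -0.13 in WTE vs WTD. With a library left out, LGE vs LGD ran from -0.019 to 0.088 for RNR2 and -0.036 to 0.052 for HUG1; LGL vs LGD from -0.11 to 0.12 for DUN1, -0.57 to 0.16 for HUG1 and -0.033 to 0.32 for RNR3; and LGC vs LGD from -0.069 to 0.017 for RNR4 and -0.30 to 0.26 for RNR3. WTE vs WTD ran from -0.35 to 0.060 for RNR1 and -0.055 to 0.15 for SML1, WTC vs WTD from -0.035 to 0.092 for DUN1, LGE vs WTE from -0.046 to 1.39 for RNR1, LGL vs WTL from -0.10 to 0.043 for RNR4 and -0.18 to 0.072 for RNR2, and LGC vs WTC from -0.16 to 0.17 for DUN1. The interactions ran from -0.27 to 0.43 for HUG1 and -0.049 to 0.21 for DUN1 in the lyso-PE medium, and from -0.017 to 0.47 for HUG1 with choline. The cause of these changes was not tested. The same alternatives for the list genes were added after the data were seen. Each group has 3 libraries, of which replicates 1 and 2 nearly coincide, and HUG1 in the control had 39 to 118 counts per library.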
